A study of Mus musculus with 4 samples.

Results

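The genes examined were Fn1, which encodes fibronectin, and 8 integrin chains that bind extracellular matrix outside the hemidesmosome, namely Itga2, Itga3, Itga5, Itgav, Itgb1, Itgb5, Itgb6 and Itgb8. They were chosen by name and make up 9 of the 25814 genes in the deposited tables. RNA was taken from keratinocytes (KCs), the main cells of the epidermis, isolated from tails of adult 129/sv mice and grown untreated in serum-free medium with 0.06 mM calcium. The 4 libraries form 2 groups of 2, one from wild-type (WT) mice and one from Nfat5-/- littermates, which lack the transcription factor NFAT5. The knockout is not described as limited to a tissue, and the study describes its 129sv mice as small, with atrophic kidneys and permanent hypernatremia. Tails travelled overnight on ice before the KCs were prepared. The study describes the KCs as those of 2 WT and Nfat5-/- sibling mice, and the p-values measure the spread between 2 libraries a group, which may in part be technical.

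Integrins are receptors made of 1 α and 1 β chain that link matrix outside the cell to actin inside it. Fibronectin is a secreted glycoprotein that cells assemble into fibrils, mainly through α5β1, and that αv integrins bind as well. The α chain sets much of the choice of ligand: α2β1 binds collagen, α3β1 binds laminin, and αv with β5 binds vitronectin. With β6 or β8, αv releases active TGF-beta from its latent complex. Resting epidermis carries mainly α2β1 and α3β1 beside the hemidesmosome integrin α6β4, whereas α5β1 and αvβ6 are known from KCs in culture and in wounds.

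None of the 9 genes passed the test between the genotypes, and fibronectin missed it narrowly. Fn1 transcripts stood 3.78-fold higher in the libraries labelled Nfat5-/-, at 168 ± 75.7 RPKM against 44.4 ± 15.0 RPKM (SD, n = 2 each). RPKM are reads scaled to exon length and library size. Itga2, the collagen-binding α chain, stood 1.90-fold higher in WT. The chains with the most transcript, Itga3 and Itgb1, differed little. By edgeR's quasi-likelihood test with Benjamini-Hochberg adjustment over all genes tested, 0 of the 9 passed an adjusted p of 0.05, beside 160 of 12614 genes (1.27%). At an unadjusted p under 0.05 there were 4, Fn1 and Itgb8 higher and Itga2 and Itgb5 lower, where 14.6% of all genes lay, 8.17% higher and 6.47% lower. DESeq2 called 2, Fn1 and Itga2 (3.16% of all genes it tested), and limma called 1, Fn1, on log2(RPKM + 1) (1.47% of all) and 0 on log2(RPKM + 0.1) (1.3%). The median log2 change of the 9 was -0.09, beside -0.01 over all genes tested.

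Depth lay between 16219445 and 23494436 gene reads a library, so that 3 reads, taken as the smallest level that can be seen, equal 0.128 to 0.185 CPM (reads scaled to the library's total gene reads). That limit covers counting error only. Nfat5 itself averaged 2.34 ± 0.940 RPKM in WT, and those labelled Nfat5-/- averaged 2.40 ± 0.539 RPKM (SD, n = 2 each; log2 change 0.09, SE 0.26, edgeR adjusted p = 0.913), so its transcript level does not separate the labels. The region removed from the gene is not given in the sources used here, so these reads may lie outside it, and the study describes a western blot in which KCs of Nfat5-/- mice lacked the NFAT5 protein. Keratinocyte markers such as Krt5 and Krt14 dominated all 4 libraries, with a summed level of 12571 to 14209 RPKM for 6 markers. Krt15, 1 of the 6, was scarce, at 0.248 and 0.0797 RPKM in WT against 0.440 and 0.370 RPKM in Nfat5-/- libraries.

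To set the sequence context beside the levels, promoter windows from RefSeq (GRCm38.p6, 250 bases before to 50 after the start) were found for 8 of the 9 genes, 10 windows in all; Fn1 had no entry. The TonE element bound by NFAT5, searched by its consensus on both strands, was in 0 of the 10 windows, beside 4.96% of all 32851 windows of that length. The GC box GGGCGG, also on both strands, was in 7 of the 10, beside 35.7% of all. Itga2 and Itgb5, the pair lower at an unadjusted p under 0.05, are shown for their proximal promoters, 5′ to 3′ on the gene's strand, with GC boxes of either strand in capitals. The Itga2 window is chr13:114932051-114932350 (minus strand, 59.3% G and C) and the Itgb5 window is chr16:33829415-33829714 (plus strand, 65.7% G and C).
Itga2: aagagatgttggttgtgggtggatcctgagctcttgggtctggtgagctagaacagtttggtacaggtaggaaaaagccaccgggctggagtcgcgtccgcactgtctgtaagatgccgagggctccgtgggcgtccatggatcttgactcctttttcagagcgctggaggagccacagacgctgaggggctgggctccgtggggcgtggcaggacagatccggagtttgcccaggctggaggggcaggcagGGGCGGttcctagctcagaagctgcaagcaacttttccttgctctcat
Itgb5: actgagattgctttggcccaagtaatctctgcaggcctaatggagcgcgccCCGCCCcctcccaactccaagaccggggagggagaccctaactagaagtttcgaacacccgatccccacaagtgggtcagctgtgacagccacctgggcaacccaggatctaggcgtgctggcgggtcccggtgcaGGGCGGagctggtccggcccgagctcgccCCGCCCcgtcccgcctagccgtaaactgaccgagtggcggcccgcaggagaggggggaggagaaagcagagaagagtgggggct
The Itga2 window held 1 GC box and the Itgb5 window held 3. A match describes letters only, and 3 windows, 1 each of Itga3, Itgb6 and Itgb8, began over 100 bases from the start in the deposited tables.

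By level the 9 genes spanned a wide range. Means over the 4 libraries ran from 466 RPKM for Itga3 through 374 for Itgb1, 106 for Fn1, 52.9 for Itgav, 34.6 for Itga2, 30.7 for Itgb5, 26.6 for Itga5 and 16.1 for Itgb6 to 0.239 RPKM for Itgb8. Itga3 lay above 98.9% of the genes tested and Itgb8 above 7.94%. The 4 neighbouring pairs from Fn1 to Itga5 in that order overlapped in their ranges over the libraries, whereas Itga3, Itgb1, Itgb6 and Itgb8 each stood apart from their neighbours.

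**Figure D1:**
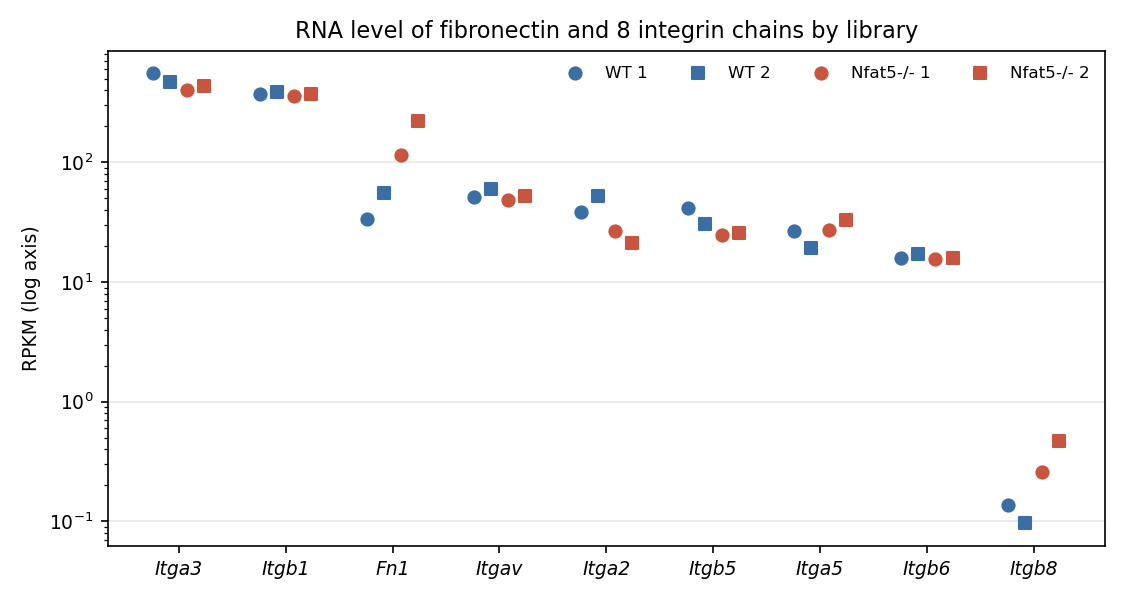
RPKM of each of the 9 genes in the 2 WT and the 2 Nfat5-/- libraries, on a log axis. Each point is a library. Fn1 runs from 33.8 to 221 RPKM, while Itgb1 stays between 356 and 390 RPKM.

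Fn1 (ENSMUSG00000026193) lies on the minus strand of chr1:71585520-71653200 (GRCm38) and has 64 exons. Its level was 33.8 and 55.0 RPKM in WT replicates 1 and 2 and 114 and 221 RPKM in Nfat5-/- replicates 1 and 2. Both Nfat5-/- libraries were above both WT libraries, and the Nfat5-/- pair lay further apart from each other than the WT pair. The fitted log2 change was 1.94 (SE 0.34, 95% interval 1.14 to 2.74, edgeR adjusted p = 0.05001), the 161st smallest p where 160 genes were called. Without Nfat5-/- replicate 2, the highest library, the log2 change was 1.37 (edgeR adjusted p = 0.203), and without Nfat5-/- replicate 1 it was 2.35 (edgeR adjusted p = 0.0564). Fn1 was called in 9 of 10 alternatives that kept all libraries and in 2 of the 4 that left one out. Those settings differed in how many genes they called in all, with 1.05% under a replicate block, 1.41% under RLE size factors, 1.7% under library totals, 1.34% with at least 10 counts in every library, 1.44% in exon reads, 1.87% in uniquely placed exon reads, 6.3% with no filter on low counts, 2.05% without WT replicate 1 and 3.7% without WT replicate 2. At an adjusted p of 0.1, where 2.89% of genes passed, Fn1 and Itga2 did too. The study names Fn1 among genes raised at least 2-fold in these same libraries, so its place here is not independent evidence. The study also reports that Fn1 rose with longer culture of tail KCs. On the opposite strand GENCODE M21 lists a gene named Apol7d with exons over those of Fn1; it is not among the deposited rows, and without strand the reads cannot be told apart.

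The split of Fn1 reads over the gene bears on the same difference. In exons it had 298 and 485 CPM in WT, against 1008 and 1951 CPM in Nfat5-/- libraries. Reads across exon junctions took 34.2% to 36.0% of the exon reads in all 4 libraries, so the junction reads had the same order as the exon reads. Intron reads, which come from unspliced RNA or retained introns, were few: 25 and 54 in WT and 89 and 109 in Nfat5-/- libraries, or 1.54 and 2.50 CPM against 3.79 and 5.85 CPM. Both Nfat5-/- libraries were again higher. In a fit of intron reads alone, added after the data were seen, the Fn1 log2 change was 1.497 (SE 0.30, edgeR adjusted p = 0.157).

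Fn1 is also made by fibroblasts and smooth muscle cells, so their markers were read beside it. In bulk libraries, more cells of a type cannot be told apart from more RNA per cell. All 8 fibroblast markers, including Col1a1, Col3a1, Dcn and Pdgfra, were below 1 RPKM in every library, and their sum was 0.667 and 0.505 RPKM in WT against 0.691 and 1.28 RPKM in Nfat5-/- libraries. The 5 smooth muscle markers summed to 184 and 151 RPKM in WT against 518 and 819 RPKM in Nfat5-/- libraries, and the 4 that could be tested all rose. Among these, Acta2, smooth muscle actin, had 164 and 134 RPKM in WT against 450 and 723 RPKM in Nfat5-/- libraries (log2 change 2.00, edgeR adjusted p = 0.0192), and Tagln, an actin-binding protein, had a log2 change of 2.11 (edgeR adjusted p = 0.00768). Both had an adjusted p under 0.05 in each fit that left a library out. Cnn1, calponin, had a log2 change of 2.17 (edgeR adjusted p = 0.0440) and lost its call without Nfat5-/- replicate 1 or 2 (edgeR adjusted p = 0.0668 and 0.275). Myh11, smooth muscle myosin, had 1 gene read in each WT library, and its call (edgeR adjusted p = 0.0435) was lost when any library was left out, with adjusted p-values of 0.0535 to 0.294. Des, which marks mature muscle, had at most 1 read in any library. The part of this marker group in the Fn1 difference was not tested.

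**Figure D2:**
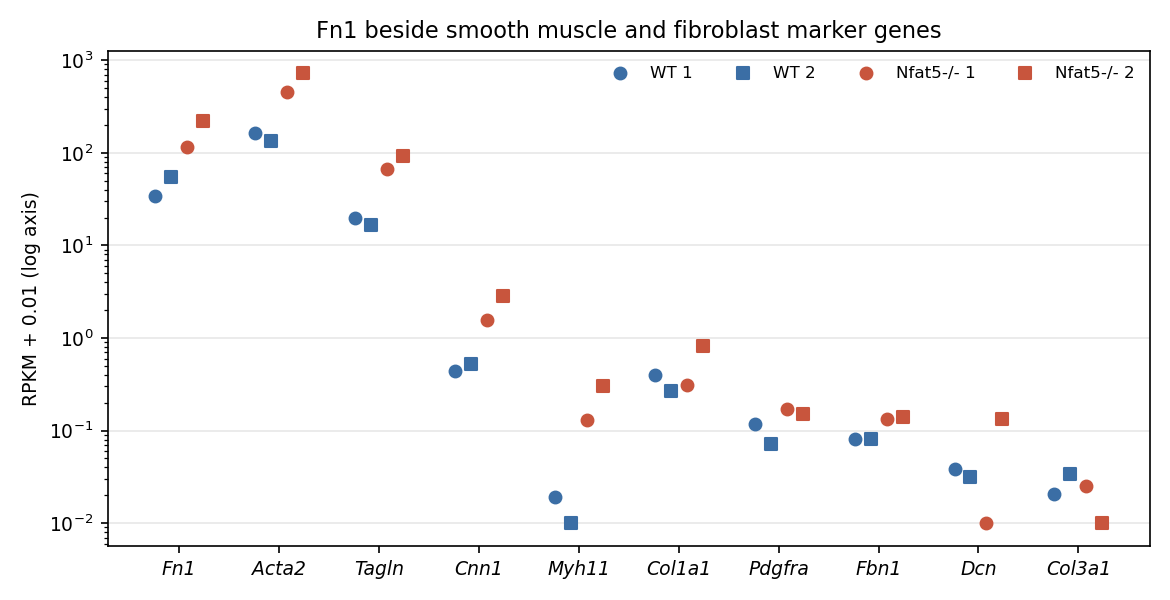
RPKM + 0.01, on a log axis, of Fn1, 4 smooth muscle markers (Acta2, Tagln, Cnn1, Myh11) and 5 fibroblast markers (Col1a1, Pdgfra, Fbn1, Dcn, Col3a1), with 1 point a library; points at the lower edge are listed at 0. Fn1, Acta2 and Tagln are above their WT points in both Nfat5-/- libraries, Acta2 at 450 and 723 RPKM, and no fibroblast marker reaches 1 RPKM.

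Of the β1-binding chains among the 9 genes, Itga2 (ENSMUSG00000015533, chr13:114833081-114932100) differed the most. Its level was 38.4 and 52.3 RPKM in WT against 26.6 and 21.1 RPKM in Nfat5-/- libraries. Both Nfat5-/- libraries were below both WT libraries. The log2 change was -0.93 (SE 0.17, 95% interval -1.32 to -0.53, edgeR adjusted p = 0.0562), which missed the threshold, while DESeq2 gave an adjusted p of 1.96e-05. Over the 14 alternatives that used gene or exon reads the log2 change stayed between -1.12 and -0.69 and was called in 9.

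Itga2 was the 1 gene that passed in intron reads, of the 8 that could be tested there. The libraries held 122 and 205 intron reads in WT and 48 and 36 in Nfat5-/- cells, or 7.52 and 9.49 CPM against 2.04 and 1.93 CPM. Introns took 2.61% and 2.42% of the Itga2 reads in WT and 1.04% and 1.24% in Nfat5-/- libraries, again with no overlap. The intron share was lower in Nfat5-/- libraries over all genes too, at 1.97% and 1.94% in WT against 1.85% and 1.79%. It was also lower, without overlap, for Fn1, Itga3, Itga5, Itgav, Itgb1 and Itgb6. How many of all genes were apart in this share was not counted. The share of Itga5 was 1.49% and 1.36% in WT against 0.577% and 0.638%, while that of Itgb5 was higher, at 1.39% and 1.59% against 1.77% and 1.92%. The intron level of Itga2 fell by 1.81 on the log2 scale (SE 0.24, edgeR adjusted p = 0.0156), where 5 of 5740 genes were called (0.0871%). In the 4 fits that left a library out, its log2 change was between -1.99 and -1.57. Those fits leave 1 library in a group, so only the size of the change is given. In CPM, exon reads gave a WT to Nfat5-/- ratio of 1.90 and intron reads one of 4.28, and the difference between these ratios was not tested. The fit of intron reads was scaled on intron reads instead. This fit, too, was added after the data were seen.

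**Figure D3:**
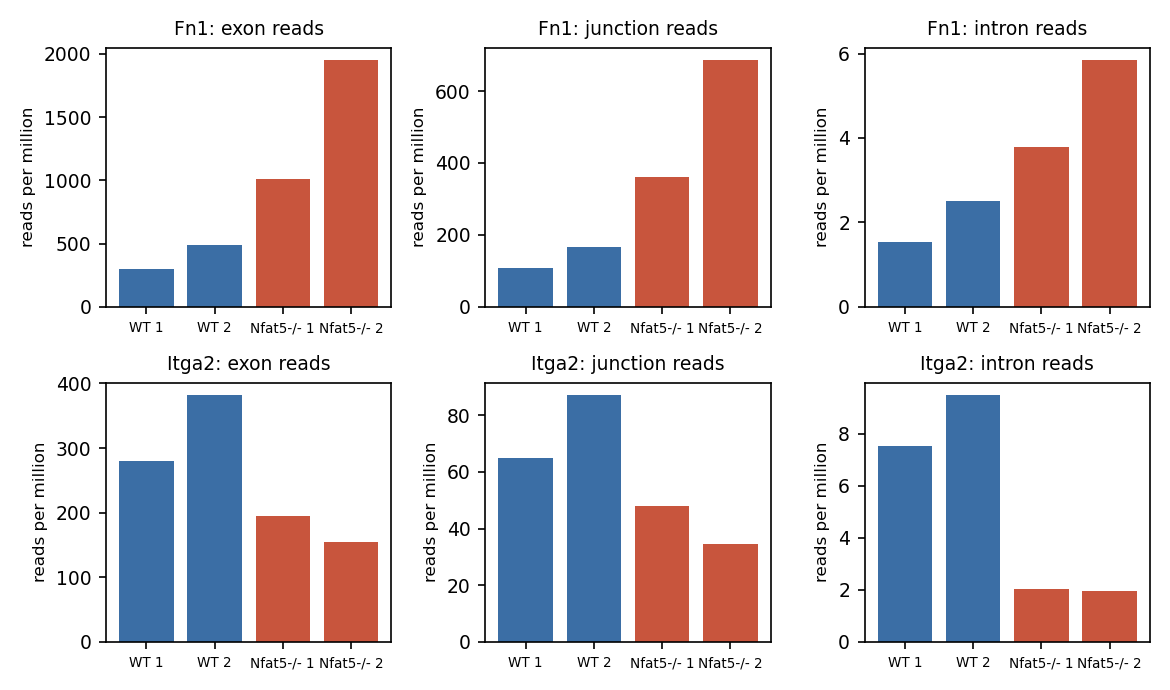
Exon, junction and intron reads per library of Fn1 (upper row) and Itga2 (lower row), in CPM on linear axes that start at 0; each bar is 1 library, blue for WT and red for Nfat5-/-. The intron reads of Itga2 are 7.52 and 9.49 CPM in WT and 2.04 and 1.93 CPM in Nfat5-/- libraries, and those of Fn1 run from 1.54 to 5.85 CPM.

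Itga3, the laminin-binding α3 chain (chr11:95044474-95076801), was the most abundant of the 9. It had 555 and 467 RPKM in WT against 405 and 435 RPKM in Nfat5-/- libraries. The Nfat5-/- libraries were both lower, and the gap between the groups was smaller than that between the WT libraries. The log2 change of -0.26 (SE 0.12, 95% interval -0.55 to 0.02) had an edgeR adjusted p of 0.373. Itga5, the fibronectin receptor's α chain (chr15:103344286-103366763), had 26.9 and 19.2 RPKM in WT against 27.4 and 33.1 RPKM in Nfat5-/- libraries. Its highest WT and lowest Nfat5-/- library nearly met. The log2 change of 0.40 (SE 0.18, 95% interval -0.02 to 0.83) had an edgeR adjusted p of 0.365, and in intron reads the sign was the opposite, at -0.55 (edgeR adjusted p = 0.530). GENCODE M21 places the microRNA gene Mir6963 inside Itga5 on the same strand, away from its exons.

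Itgav, the αv chain that pairs with β1, β5, β6 and β8 (chr2:83724397-83806916), had 51.5 and 59.5 RPKM in WT against 48.2 and 52.4 RPKM in Nfat5-/- libraries. The groups overlapped, and this was the 1 gene of the 9 where they did. The log2 change was -0.13 (SE 0.12, 95% interval -0.40 to 0.14, edgeR adjusted p = 0.666). GENCODE M21 lists Gm13684 and Dnmt3l-ps1 on the opposite strand of Itgav, the former with overlapping exons. Over the 9 genes the groups were apart in 8, 3 higher and 5 lower in Nfat5-/- libraries, beside 46.5% of all genes tested. In CPM they were apart in 7, beside 47.8%, as Itgb1 then overlapped, and in uniquely placed exon reads in 8, beside 45.1%.

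Among the β chains, Itgb1, the shared partner of α2, α3, α5 and αv (chr8:128685654-128733200), had 376 and 390 RPKM in WT against 356 and 374 RPKM in Nfat5-/- libraries. The nearest pair of libraries of the groups all but touched. Its log2 change of -0.05 (SE 0.10) had a 95% interval of -0.28 to 0.18, which leaves room for a modest difference in either direction (edgeR adjusted p = 0.864). Itgb6, which with αv forms an epithelial receptor (chr2:60598292-60722643), had 16.0 and 17.2 RPKM in WT against 15.6 and 15.8 RPKM in Nfat5-/- libraries. The gap between the groups was small, and the log2 change was -0.09 (SE 0.10, 95% interval -0.32 to 0.14, edgeR adjusted p = 0.727). Introns took 10.2% to 13.3% of the Itgb6 reads.

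Itgb5, the vitronectin receptor's β chain (chr16:33829665-33949153), had 41.5 and 30.7 RPKM in WT against 24.5 and 25.9 RPKM in Nfat5-/- libraries. Both Nfat5-/- libraries were lower, and the WT libraries differed more from each other. The log2 change was -0.49 (SE 0.15, 95% interval -0.85 to -0.13, edgeR adjusted p = 0.207), and in intron reads it was 0.11 (edgeR adjusted p = 0.902). In CPM its intron reads were 1.85 and 1.57 in WT against 1.40 and 1.61 in Nfat5-/- libraries, with overlap. Itgb8 (chr12:119158022-119238802) was scarce, with 20 and 20 reads in WT and 52 and 79 in Nfat5-/- libraries, which is 0.136 and 0.0967 against 0.257 and 0.467 RPKM. The Nfat5-/- libraries were both higher, above the 3-read limit in all 4. The log2 change was 1.60 (SE 0.42, 95% interval 0.62 to 2.58, edgeR adjusted p = 0.142).

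**Figure D4:**
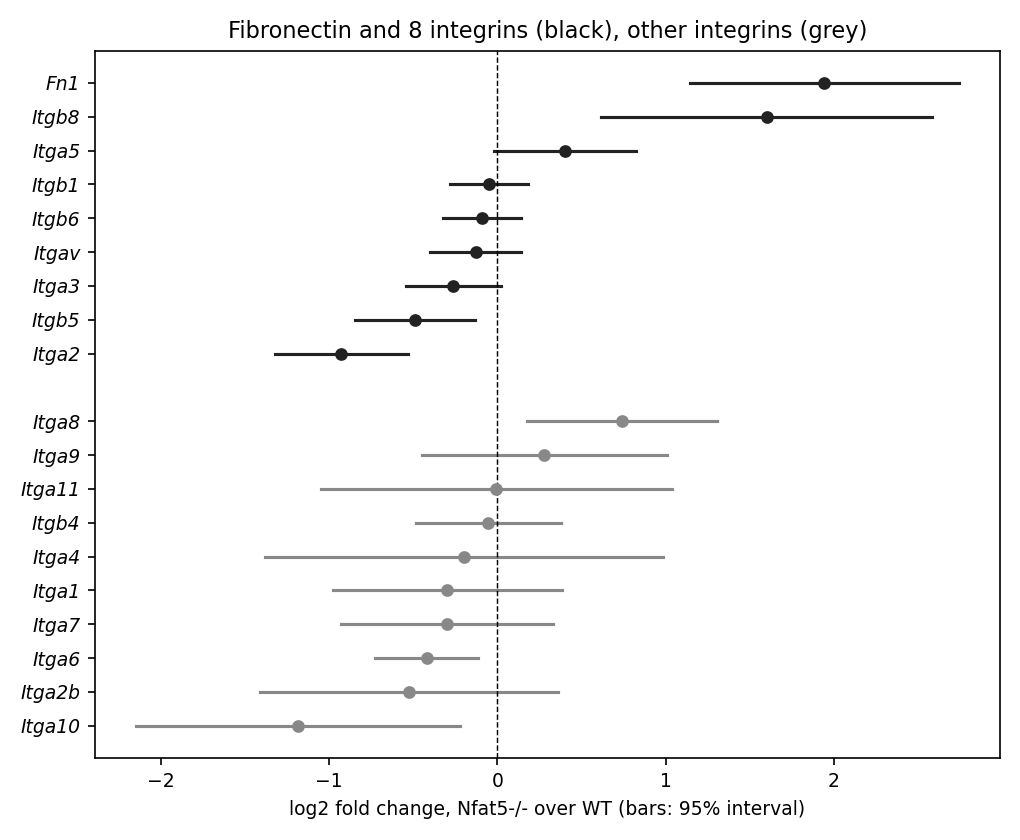
Log2 change, Nfat5-/- against WT, of fibronectin and the 8 integrins (black) and of the other integrin chains tested (grey), with 95% intervals from edgeR. Fn1 at 1.94 and Itgb8 at 1.60 lie to the right and Itga2 at -0.93 to the left, and none passes an adjusted p of 0.05.

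Chains were also set against each other within a library. Itga3 took 82.6% and 78.1% of the summed RPKM of Itga2, Itga3, Itga5 and Itgav in WT and 79.9% and 80.3% in Nfat5-/- libraries, with overlap. Itga5 took 4.00% and 3.21% in WT against 5.40% and 6.10%, and Itga2 took 5.71% and 8.74% against 5.24% and 3.90%; neither pair of groups overlapped. The ratio of Itga5, which binds fibronectin, to Itga2, which binds collagen, was thus 0.701 and 0.367 in WT and 1.03 and 1.57 in Nfat5-/- libraries. The 4 α chains together gave 1.79 and 1.53 times the Itgb1 level in WT and 1.42 and 1.45 times in Nfat5-/- libraries. Fn1, the ligand, stood at 1.26 and 2.87 times Itga5 in WT and at 4.18 and 6.70 times in Nfat5-/- libraries. Of the summed β5, β6 and β8 transcripts, Itgb5 took 60.8% to 72.0%, Itgb6 took 27.8% to 38.6%, and Itgb8 at most 1.11%. These are shares and ratios of RNA, and no test was run on them. The exact two-sided permutation test of a single such value cannot go below a p of 0.333 with 2 against 2 libraries.

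The genes whose 4-library pattern lay nearest to these were found by distance between log2 CPM values, each centred on its own mean, over 10197 genes. Nearest to Fn1 were Dgkk, Ifi27l2b, Cntn2, Cdh2 (N-cadherin) and Cnn1 (one of the smooth muscle markers), at distances of 0.173 to 0.416. Nearest to Itga2 were Stab1, Efna2, Grb10, Hs6st1 and Slc39a2, at 0.0899 to 0.260. With 4 libraries many genes lie close, and the distance is a description of these libraries.

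The other genes of the pathway were read from lists. Over all genes tested 1.27% passed and 14.6% lay at an unadjusted p under 0.05, 8.17% higher, which is the background for the counts of each list. Of 18 other integrin chains listed, 17 were matched in the tables used here and 10 could be tested. In edgeR 0 passed, with 3 at an unadjusted p under 0.05. Itga6 and Itgb4, the hemidesmosome pair, were the only ones with a mean of at least 1 RPKM. Itga6 had 147 ± 17.4 RPKM in WT against 112 ± 7.60 RPKM in Nfat5-/- libraries (log2 change -0.42, edgeR adjusted p = 0.206), and Itgb4 had 399 ± 75.3 and 378 ± 77.8 RPKM (log2 change -0.05, edgeR adjusted p = 0.925; SD, n = 2 each). Among the other chains tested, the largest log2 changes were in Itga8, at 0.74 (edgeR adjusted p = 0.231), and Itga10, at -1.18 (edgeR adjusted p = 0.256), with 59.1% of the Itga10 exon reads placed at a single site. Thus Itga3, Itgb1, Itgb4 and Itga6 held most of the integrin transcripts in both genotypes.

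Among matrix ligands of integrins, 2 of 21 tested passed, both lower and both laminin chains that α3β1 binds in their trimer: Lamb3 had 413 ± 22.3 RPKM in WT against 197 ± 9.52 RPKM in Nfat5-/- libraries (log2 change -1.05, edgeR adjusted p = 0.0123). Lama3 had 157 ± 21.1 and 91.8 ± 6.63 RPKM (log2 change -0.75, edgeR adjusted p = 0.0452; SD, n = 2 each). Lama3 lost its call without Nfat5-/- replicate 1, Nfat5-/- replicate 2 or WT replicate 2 (edgeR adjusted p = 0.155, 0.158 and 0.0560), and Lamb3 without Nfat5-/- replicate 1 (edgeR adjusted p = 0.0558). Thbs1, thrombospondin, had 358 ± 72.4 and 461 ± 75.9 RPKM (SD, n = 2 each), with overlap and a log2 change of 0.38 (edgeR adjusted p = 0.365). Postn and Spp1, αv ligands, averaged at most 1.03 RPKM in either group, with log2 changes of 1.87 and 1.70 (edgeR adjusted p = 0.180 and 0.132). The list's median log2 change was 0.46, beside -0.01 over all genes, and 12 of its 21 lay at an unadjusted p under 0.05, 9 of them higher.

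Partners in fibronectin assembly gave 0 passes of 7 in edgeR, with 5 at an unadjusted p under 0.05 and a median log2 change of 0.52. Sdc1, a heparan sulfate proteoglycan abundant in KCs, had 894 ± 2.65 RPKM in WT against 903 ± 41.5 RPKM in Nfat5-/- libraries (log2 change 0.03, edgeR adjusted p = 0.913). Sdc4, which works with α5β1 in adhesion to fibronectin, had a log2 change of 0.32 (edgeR adjusted p = 0.205). Tgm2, the cross-linking enzyme that binds fibronectin, had a log2 change of 1.12 (edgeR adjusted p = 0.0601). Only 29.5% of its exon reads were placed at a single site, and these alone gave 1.28 (edgeR adjusted p = 0.0590). Thy1, an integrin ligand, had 2 and 5 reads in WT and 19 and 29 in Nfat5-/- libraries (log2 change 2.65, edgeR adjusted p = 0.102).

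Inside the cell and at its surface no listed gene passed. Of 24 genes of talin, kindlin and the adhesion plaque, 0 passed in edgeR and 9 lay at an unadjusted p under 0.05. Flna, the actin cross-linker filamin A, had 341 and 412 RPKM on average in WT and Nfat5-/- libraries (log2 change 0.29, edgeR adjusted p = 0.247). Tns4, a tensin, averaged 148 and 119 RPKM (log2 change -0.29, edgeR adjusted p = 0.297). Parvb, β-parvin, had a log2 change of 3.03 (edgeR adjusted p = 0.134) that rested on 5 and 5 reads in WT and 82 and 15 in Nfat5-/- libraries. Of 6 genes of latent TGF-beta, cargo of αvβ6 and αvβ8, 0 passed in edgeR and 0 lay at an unadjusted p under 0.05, and Tgfb1 had a log2 change of -0.23 (edgeR adjusted p = 0.359). Ltbp1, which anchors the latent complex to fibronectin fibrils, averaged 6.45 RPKM in WT against 9.28 RPKM in Nfat5-/- libraries, with overlap (log2 change 0.52, edgeR adjusted p = 0.537). Of 7 integrin inhibitors and tetraspanins 0 passed in edgeR, with 1, Dok1, at an unadjusted p under 0.05 (log2 change 0.36, edgeR adjusted p = 0.254). The tetraspanins Cd9 and Cd81, partners of α3β1, had log2 changes of 0.15 and 0.22 (edgeR adjusted p = 0.517 and 0.578). Over all 74 genes of the lists 2 passed (1.27% of all genes did) and 30 lay at an unadjusted p under 0.05 (14.6% of all genes), 22 of these higher (8.17%), with a median log2 change of 0.13.

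**Figure D5:**
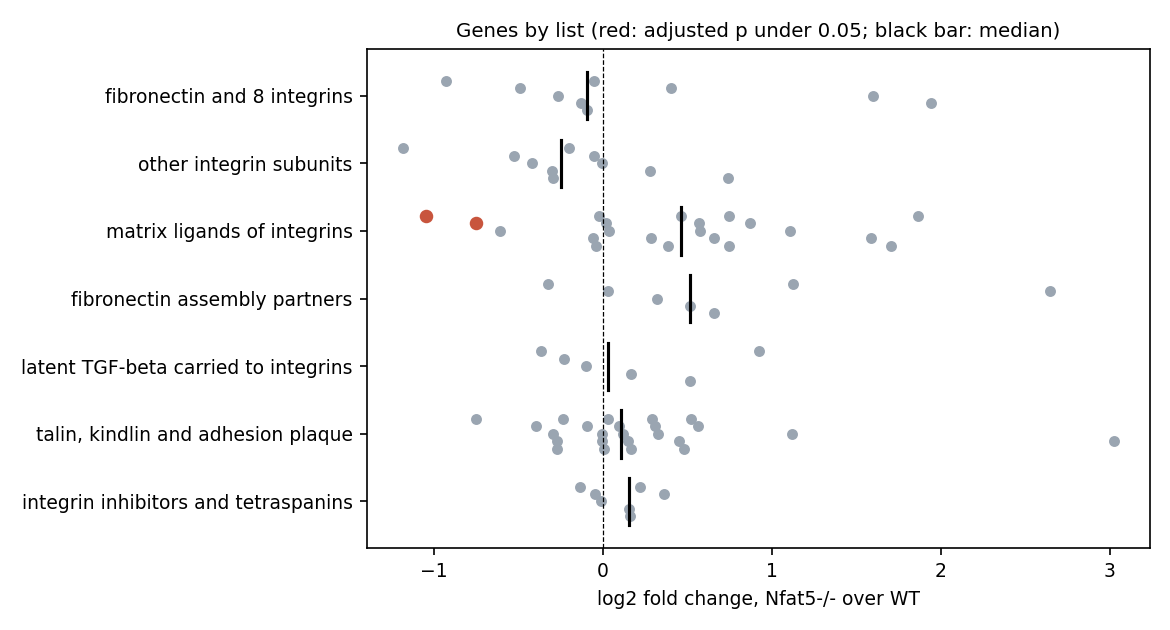
Log2 change, Nfat5-/- against WT, of every tested gene in each list, with 1 point a gene, a black bar at the list's median and called genes in red. The medians run from -0.25 for other integrin chains to 0.52 for fibronectin assembly partners, and Lamb3 and Lama3 among the matrix ligands are the only genes of the lists past an adjusted p of 0.05.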

How the data were processed

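Poly(A) RNA of 4 libraries was sequenced by the authors as single reads and aligned to the mouse genome (GRCm38) with the CLC Genomics Workbench, per the submitters' processing notes. The authors deposited, per gene, raw read counts in the gene, its exons, junctions and introns, and RPKM values (reads per exon length and mapped reads, written with decimal commas). The library kit does not mark strand. Total gene counts of all 4 libraries were tested with edgeR 4.0.16 (R 4.3.3): filterByExpr left 12614 genes, TMM factors were applied, and genotype was the sole term of the quasi-likelihood fit. Two-sided p-values were adjusted by Benjamini-Hochberg across the whole table at a threshold of 0.05. Standard errors (SE) were taken from the change and its F statistic. DESeq2 1.42.0 and limma 3.58.1 (log2 RPKM with a pseudocount of 1 or 0.1, genes of at least 1 RPKM) were alternatives, as were other read classes, scalings, filters, a replicate block and leaving out a library. The test was tried on simulated counts first. Named were the 9 genes and, from each list, genes past the threshold, the 2 of highest mean RPKM and the 2 of largest change (some only counted), plus the 5 nearest patterns. The genes, lists and rules were chosen with earlier results of these data known. Libraries of a genotype differed by more than counting noise. Groups and replicate numbers came from the sample titles. One listed gene that the rule would name is not reported here.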

Additional observations from a re-analysis of the deposited data

How the results depend on the processing

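The number of the 9 genes past the threshold depended on the setting. It was 0 as reported, 1 with a replicate block or limma on log2(RPKM + 1), 2 with DESeq2, RLE size factors, library totals, at least 10 counts in every library, exon reads, uniquely placed exon reads or an adjusted p of 0.1, 5 with no filter on low counts (Fn1, Itga2, Itga5, Itgb5 and Itgb8), 1 in intron reads, and 0 to 3 when a library was left out. Over all genes 160 passed; the count was 364 at an adjusted p of 0.1, 416 with DESeq2, 1137 with no filter, 5 in intron reads and 16 to 478 when a library was left out, lowest without Nfat5-/- replicate 2 (16, of which 14 shared with the 160) and Nfat5-/- replicate 1 (31, 26 shared). Of the listed partner genes 2 passed; the count was 7 at an adjusted p of 0.1, 10 with DESeq2, 4 with library totals, 23 with no filter, 0 in intron reads and 1 to 4 when a library was left out. The replicate numbers are not stated to pair the libraries, and deviations of same-numbered libraries correlated at -0.0652; with the replicate block 132 genes passed, and Fn1 with an edgeR adjusted p of 0.00630. Signs reversed for Itgb1 without Nfat5-/- replicate 1 (log2 change 0.0025, range -0.10 to 0.0025 when a library was left out) and, in intron reads, for Itga5 (-0.55) and Itgb5 (0.11). The intron fit was scaled on intron reads. In CPM, the Itgb5 intron ratio of Nfat5-/- to WT was 0.880, with overlap. Where a library was left out, the lone one of its group was assumed to vary like the other group. The cause was not tested. With 2 libraries a genotype, culture preparation and genotype cannot be told apart. Depth limits Itgb8 and the 7 other integrin chains of the tables that were left untested, with at most 9 reads in any library.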

Other observations

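Melanocyte and leukocyte markers were also read beside the integrins, since cells of either type can remain in epidermal preparations. The 5 melanocyte markers summed to 7.29 and 6.99 RPKM in WT against 2.04 and 2.89 RPKM in Nfat5-/- libraries, and 1 of the 4 tested, Tyrp1, fell by 2.04 on the log2 scale (edgeR adjusted p = 0.0203), a call lost without Nfat5-/- replicate 1 or 2 (edgeR adjusted p = 0.0939 and 0.0800). The 4 leukocyte markers summed to 2.08 to 3.73 RPKM with overlap between the groups, and the 4 endothelial markers were below 1 RPKM in every library. Their part in the integrin levels was not tested.

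Nearest in pattern to Itgb5 were Lemd2, Plod1, Tfdp2, Gm6741 and Gm6899, at distances of 0.0116 to 0.0613, and nearest to Itgb8 were Amot, Cited4, Pdlim2, Prss27 and Krt6b, at 0.138 to 0.270.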
